A study of Mus musculus with 5 samples.

Results

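The expression of 10 genes of the tumor necrosis factor (TNF) family was followed in germinal center B cells that had lost, in part or almost fully, the transcripts of the alternative NF-κB pair Relb and Nfkb2. The 10 genes are 7 receptor genes (Cd40, Tnfrsf13b, Tnfrsf13c, Ltbr, Tnfrsf1a, Tnfrsf1b and Fas) and 3 ligand genes (Lta, Ltb and Tnf). They were chosen by family, as the rows of the deposited table that carry these names, out of 38924 genes. WT and DKO mice were compared. WT (3 libraries) came from Cg1-Cre mice and DKO (2 libraries) from littermates of the genotype relbfl/flnfkb2fl/flCg1-Cre, so that both groups carried the Cre allele. All mice were 12 weeks old and had received sheep red blood cells, and eGFP+ germinal center B cells were sorted from the spleen on day 7. Cg1-Cre is switched on with transcription of the IgG1 constant region, around germinal center entry, and B cells that do not recombine keep intact alleles.

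Receptors of the TNF family carry signals from membrane-bound or shed trimeric ligands to TRAF adaptor proteins or to death domain adaptors. CD40, the BAFF receptor encoded by Tnfrsf13c and the lymphotoxin β receptor encoded by Ltbr are the classical inputs of the alternative NF-κB pathway, in which the kinase NIK drives the processing of the Nfkb2 product p100 to p52, the partner of RELB. In the germinal center, CD40 receives help from follicular T cells, and the lymphotoxin made by B cells maintains the network of follicular dendritic cells.

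Sequencing depth and composition differed between the libraries. Totals ran from 34.0 to 57.6 M reads, of which 15.4 to 17.7 M lay outside the mitochondrial genome. Relb kept 40.2% of its WT mean in DKO replicate 1 and 7.59% in DKO replicate 2, and Nfkb2 kept 52.5% and 13.0%. Germinal center B cell markers were detected in every library, with Bcl6 at 9681 to 11763 normalized counts, and 10 of the 11 listed markers were detected (Mef2b was listed at 0). Of the 10 tested, 2 had higher and 8 lower fitted values in DKO, none past the adjusted threshold. Over the whole table, 6615 of the 13242 genes tested were lower. Lower in DKO without overlap were 2 of these 10 markers, Cd79a and Rgs13, beside 11.0% of all genes tested. Cd79a was at 11264, 14472 and 14674 across WT, against 10703 and 8981 across DKO. Rgs13, a regulator of G protein signaling, was at 8381, 3777 and 4727 across WT, against 1476 and 1990 across DKO, without overlap (log2 fold change −1.63 ± 0.33, unadjusted p = 0.000754, the 13th smallest, and adjusted p = 0.768, limma). WT replicate 2 and DKO replicate 1 stood apart by their transcripts of other lymphocytes. The summed level of 12 T cell markers was 103, 1416 and 60.5 in WT replicates 1 to 3 and 693 and 154 in DKO replicates 1 and 2. That of 7 naive B cell markers was 4599, 17253 and 8207 in WT and 14882 and 7007 in DKO. The labels do not say whether each library came from 1 mouse or several, and p-values measure the spread between these libraries.

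Across the family, Ltb was the member with the clearest gap between genotypes, Cd40 had a lower mean in DKO that rested on DKO replicate 2, and the other members overlapped or were barely expressed. No member passed the adjusted threshold of 0.05 in limma's test, and no gene of the 13242 tested did (smallest adjusted p = 0.148). Of the 10 members, 8 reached the minimum mean of 10 normalized counts and were tested, and Ltbr and Tnfrsf1a did not. Among the 8, 3 had higher and 5 lower fitted values in DKO, where 6627 of all genes tested were higher and 6615 lower. The median log2 fold change was −0.10 for the members and 0.00128 for all genes tested. An unadjusted p under 0.05 was found for 3.69% of all genes tested as higher and 2.37% as lower, and 23.4% had DKO values entirely above or below the WT values. Among the tested members, 1 of 8 was lower at an unadjusted p under 0.05 and 1 of 8 (12.5%) had groups that did not overlap. Both counts refer to Ltb, and the second share is below that of all genes. On the recovered reads edgeR called 0 genes, and its unadjusted p was under 0.05 for 445 higher genes (3.36%) and 303 lower ones (2.29%). DESeq2 called 16 genes as higher (0.121%) and 13 as lower (0.0982%), none of them a member.

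**Figure D1:**
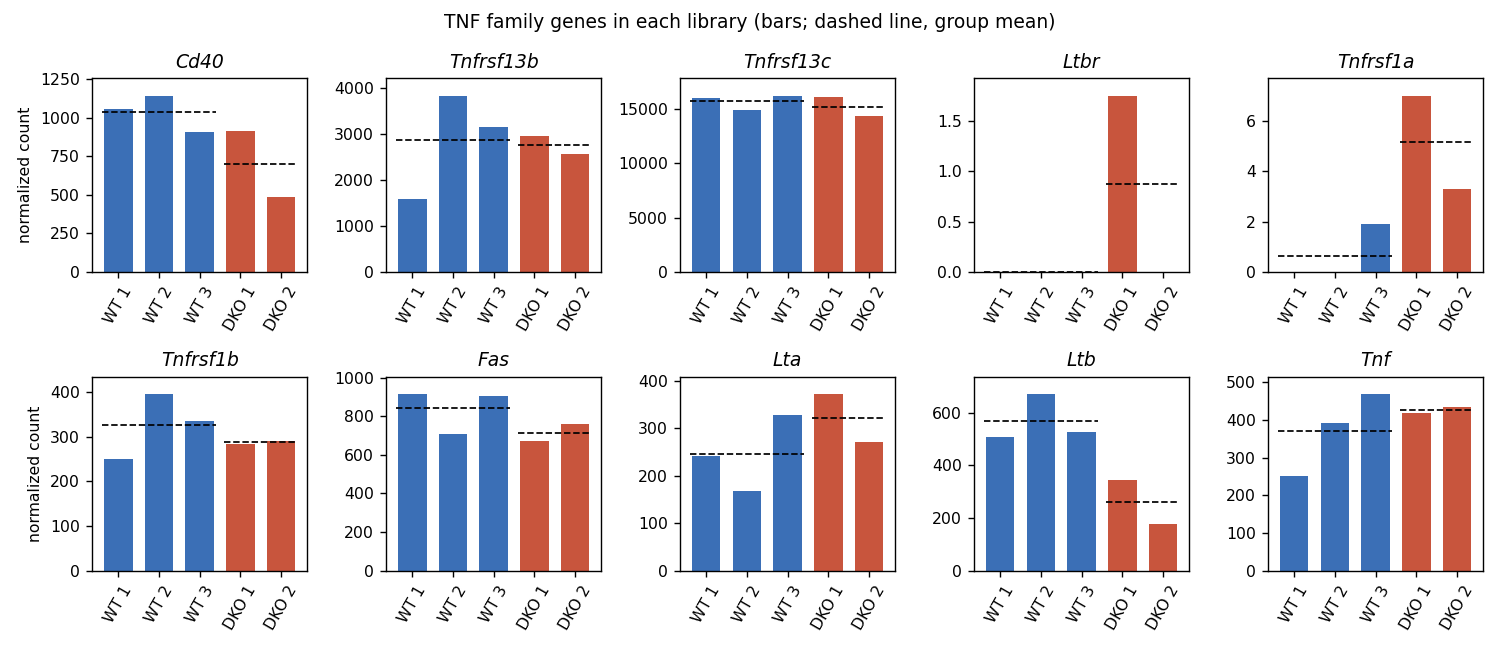
Normalized counts (y axis, from 0, a separate scale for each gene) of the 10 genes in each of the 5 libraries (x axis), with WT in blue, DKO in red and the group mean as a dashed line. Ltb is below all 3 WT libraries in both DKO libraries, Cd40 is low in DKO replicate 2 alone, and Ltbr and Tnfrsf1a stay under 10 normalized counts throughout.

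Receptors of B cell survival and activation spanned a wide range of levels. Levels were set per kilobase of exon as a rough scale for comparing genes, since the length covers the exons of all annotated transcripts. Tnfrsf13c was the highest member in WT at 7673 ± 349 (SD, n = 3) normalized counts per kb. Tnfrsf13b, which encodes TACI, a second receptor for BAFF and a receptor for APRIL, followed at 1006 ± 406, and its range did not meet that of Tnfrsf13c. Fas (408 ± 56.0), Ltb (375 ± 58.4), Cd40 (304 ± 34.7), Tnf (226 ± 67.1) and Lta (178 ± 57.4) came next on this per-kb scale, and the WT ranges of neighbours in this order overlapped. Tnfrsf1b was lower than these at 85.6 ± 19.2 per kb. In DKO the order changed at Ltb and Cd40, which averaged 172 ± 76.9 and 206 ± 89.0 per kb (n = 2), below the 232 ± 51.3 of Lta and the 260.5 ± 7.20 of Tnf. On this scale the DKO ranges of Ltb and Cd40 each overlapped that of Lta, and that of Cd40 also overlapped that of Tnf.

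**Figure D2:**
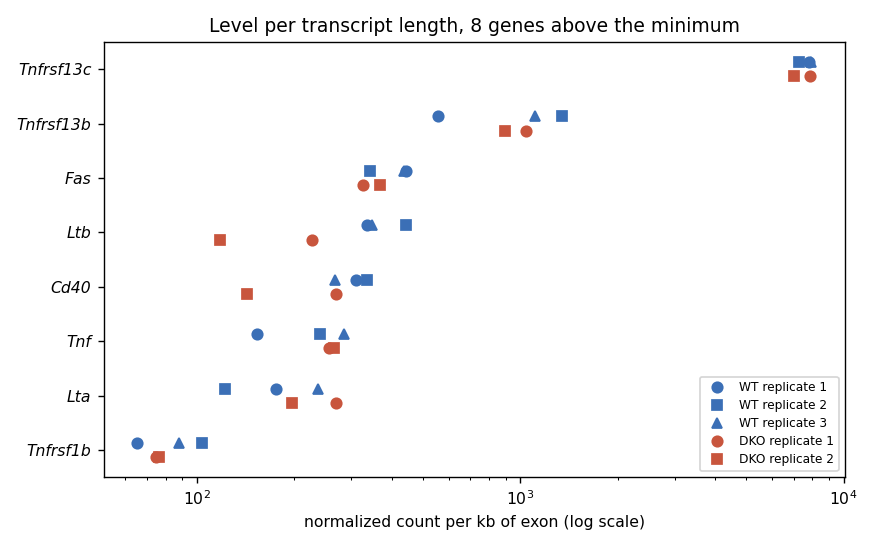
Normalized counts per kb of exon (x axis, log scale) of the 8 members that reached the minimum, with 1 point per library, ordered by the WT mean. Tnfrsf13c lies far to the right of the other members, and the DKO points of Ltb lie to the left of its WT points.

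Tnfrsf13c, whose product transmits the BAFF survival signal, was nearly level across the libraries. It stood at 16002, 14900 and 16238 normalized counts across WT replicates 1 to 3, against 16115 and 14331 across DKO replicates 1 and 2. Its coefficient of variation over the 5 libraries was 5.49%, where the median gene had 25.0%. Between genotypes the log2 difference was −0.05 ± 0.20 (SE), with a 95% interval from −0.51 to 0.41 (adjusted p = 0.973, limma), which leaves room for a difference of up to 1.33-fold upward or to 0.703 of WT downward. Tnfrsf13b was at 1580, 3826 and 3149 across WT, against 2955 and 2547 across DKO, so that WT replicate 1 alone set it apart and the DKO values lay inside the WT range. Its log2 fold change was 0.04 ± 0.34 (95% interval −0.74 to 0.82, adjusted p = 0.988, limma) and became −0.34 ± 0.23 without WT replicate 1.

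Cd40, the receptor for the CD40 ligand of helper T cells, was at 1053, 1143 and 909 normalized counts across WT, against 916 and 487 across DKO. DKO replicate 1 lay just inside the WT range and DKO replicate 2 well below it. They kept 88.5% and 47.1% of the WT mean, against the 40.2% and 7.59% kept by Relb in the same libraries. DKO replicate 2 was the lowest of the 5 libraries for 15.2% of all genes tested and for 3 of the 8 tested members. Whether the levels of Cd40 and Relb are linked was not tested, and 2 DKO libraries cannot show it. The log2 fold change was −0.62 ± 0.29 with a 95% interval from −1.27 to 0.02 (unadjusted p = 0.0569, adjusted p = 0.832, limma). It was −0.17 ± 0.30 without DKO replicate 2 and −1.08 ± 0.30 without DKO replicate 1. These 2 fits hold a single DKO library, which is assumed to vary like the WT libraries.

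Death receptors and TNF receptors gave no call either. Fas encodes the death receptor that removes germinal center and other activated lymphocytes, and its protein is a common gate for germinal center B cells. Whether it was part of this sort is not given in the sources used here. Fas was at 913, 708 and 902 normalized counts across WT, against 672 and 757 across DKO. WT replicate 2 and DKO replicate 1, the libraries richer in T cell and naive B cell markers, were the lowest of their groups. The log2 fold change of Fas was −0.23 ± 0.22 (95% interval −0.73 to 0.27, adjusted p = 0.896, limma). Tnfrsf1b, the TNF receptor without a death domain, was at 249, 395 and 335 across WT, against 285 and 291 across DKO, inside the WT range (log2 fold change −0.16 ± 0.28, 95% interval −0.78 to 0.47, adjusted p = 0.942).

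Tnfrsf1a, the death domain receptor for TNF, had 0, 0 and 2 reads in WT and 8 and 4 reads in DKO. Per unit of depth the DKO libraries held 7.51 times as many reads, with a 95% exact interval of 1.67 to 69.1 that covers counting error only. The gene was under the minimum and was not tested at the main setting. At a minimum mean of 1 its adjusted p was 0.830 (limma). Ltbr had 2 reads in DKO replicate 1 and was at 0 in the other 4 libraries, where 3 reads is the limit a count of 0 allows. Ltbr is known mainly from stromal and myeloid cells. Myeloid markers, 7 in the table, summed to 1162, 973 and 161 normalized counts in WT and to 1244 and 488 in DKO, and their part in the few Tnfrsf1a and Ltbr reads was not tested.

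The 3 ligand genes Lta, Ltb and Tnf are neighbours in the MHC region of chromosome 17, and Ltb stood apart from Lta and Tnf. LTA is secreted as a trimer or held at the membrane by LTB, the transmembrane subunit that allows lymphotoxin to engage the lymphotoxin β receptor, while TNF signals through the receptors encoded by Tnfrsf1a and Tnfrsf1b. Ltb was at 509, 670 and 526 normalized counts across WT, against 343 and 178 across DKO, from 475, 649, 547, 392 and 216 reads. Both DKO libraries lay below every WT library, keeping 60.4% and 31.4% of the WT mean. In all, 11.0% of the genes tested were lower in DKO without overlap. The log2 fold change of Ltb was −1.18 ± 0.31 with a 95% interval from −1.90 to −0.47, or 0.440 of WT (0.269 to 0.722). Its unadjusted p of 0.00455 was the 54th smallest of 13242 genes, close behind those of Relb (0.00401) and Nfkb2 (0.00451), and all 3 had an adjusted p of 0.823 (limma).

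Lta was at 242, 168 and 327 normalized counts across WT, against 371 and 271 across DKO, and the groups overlapped. Its log2 fold change was 0.42 ± 0.33 (95% interval −0.34 to 1.18, adjusted p = 0.878, limma). Tnf was at 252, 393 and 468 across WT, against 419 and 435 across DKO, and both DKO values lay inside the WT range. Its log2 fold change was 0.25 ± 0.30 (95% interval −0.43 to 0.93, adjusted p = 0.916).

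The ligand genes were also set against each other within a library, where scaling between libraries cancels. Ratios that hold Ltb use the same Ltb values as above and add no separate support. All ratios were chosen after the values were seen and are given without a test. Per kb of exon, the ratio of Ltb to Lta was 1.92, 3.63 and 1.47 in WT and 0.843 and 0.601 in DKO. Ltb thus exceeded Lta in every WT library and was below it in both DKO libraries. The ratio of Tnf to Ltb was 0.458, 0.543 and 0.823 in WT and 1.13 and 2.26 in DKO, likewise without overlap, while that of Tnf to Lta was 0.877, 1.97 and 1.21 in WT and 0.951 and 1.36 in DKO, within the WT range.

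**Figure D3:**
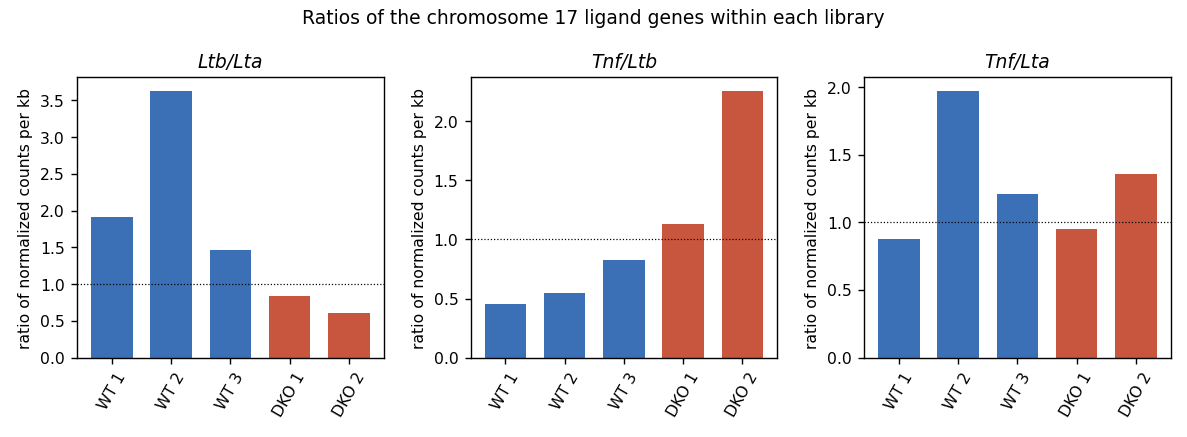
Ratios of normalized counts per kb of exon (y axis, from 0) for Ltb to Lta, Tnf to Ltb and Tnf to Lta in each library (x axis), with WT in blue, DKO in red and a dotted line where both genes are equal. Ltb to Lta is above 1 in the 3 WT libraries and below 1 in the 2 DKO libraries, Tnf to Ltb the reverse, and Tnf to Lta overlaps between genotypes.

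The promoters of these 3 neighbours are shown because Ltb stood apart from its neighbours in the values above. Each stretch is the 250 bases before the start in RefSeq (GRCm38.p6), 5′ to 3′ on the strand of the gene. The start of Ltb lies 7500 bases from that of Tnf, on the opposite strand, and the start of Tnf lies 3344 bases from that of Lta, on the same strand. G and C make up 63.2% of the stretch before Ltb, 58.4% of that before Lta and 57.6% of that before Tnf, against a median of 52.4% over 32851 promoters. Before the receptor genes the share ran from 54.0% (Tnfrsf13b) to 69.2% (Ltbr), with the same 63.2% for Tnfrsf13c as for Ltb. Cd40 had no entry in the promoter reference used.
Ltb, chr17:35194257-35194506, plus strand: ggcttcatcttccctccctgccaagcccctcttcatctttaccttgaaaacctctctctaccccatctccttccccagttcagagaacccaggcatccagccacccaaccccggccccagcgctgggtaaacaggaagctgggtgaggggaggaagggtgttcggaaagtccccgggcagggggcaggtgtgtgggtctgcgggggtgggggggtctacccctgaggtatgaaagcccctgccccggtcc
Lta, chr17:35205352-35205601, minus strand: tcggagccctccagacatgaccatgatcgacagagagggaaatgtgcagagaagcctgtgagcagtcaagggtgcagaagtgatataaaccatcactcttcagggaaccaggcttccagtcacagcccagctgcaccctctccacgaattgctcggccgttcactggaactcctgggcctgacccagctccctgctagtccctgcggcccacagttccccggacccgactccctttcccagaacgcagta
Tnf, chr17:35202008-35202257, minus strand: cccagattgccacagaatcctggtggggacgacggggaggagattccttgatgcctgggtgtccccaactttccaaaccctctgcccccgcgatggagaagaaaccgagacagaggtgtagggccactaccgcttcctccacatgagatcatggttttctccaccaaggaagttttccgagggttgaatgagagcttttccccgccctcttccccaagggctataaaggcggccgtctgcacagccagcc

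T cells and naive B cells transcribe Ltb too, and such transcripts varied within both groups. Between the libraries with more of them, DKO replicate 1 held 51.3% of the Ltb level of WT replicate 2. Among the others, DKO replicate 2 held 34.5% of the mean of WT replicates 1 and 3. Lymphocyte content is not equal within these pairings, since the T cell markers summed to 693 in DKO replicate 1 against 1416 in WT replicate 2, and to 154 in DKO replicate 2 against 103 and 60.5 in WT replicates 1 and 3. A fit with the T cell markers' mean log2 level added as a term gave an estimate for Ltb of −1.26 ± 0.26 on the log2 scale, where limma's adjusted p was 0.420. That term holds no naive B cell markers, and the fit has fewer residual degrees of freedom than the main one. Without both WT replicate 2 and DKO replicate 1 the Ltb estimate stood at −1.53 ± 0.37. In that last fit 1 DKO library remains. Without DKO replicate 2 it was −0.71 ± 0.33, with an unadjusted p of 0.0632. For Cd40 the same 2 ratios were 80.1% and 49.7%, and for Lta 221% and 95.3%. The part of T cells and naive B cells in the Ltb levels was not tested. In a bulk library, fewer cells with a transcript and less of it per cell cannot be told apart.

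**Figure D4:**
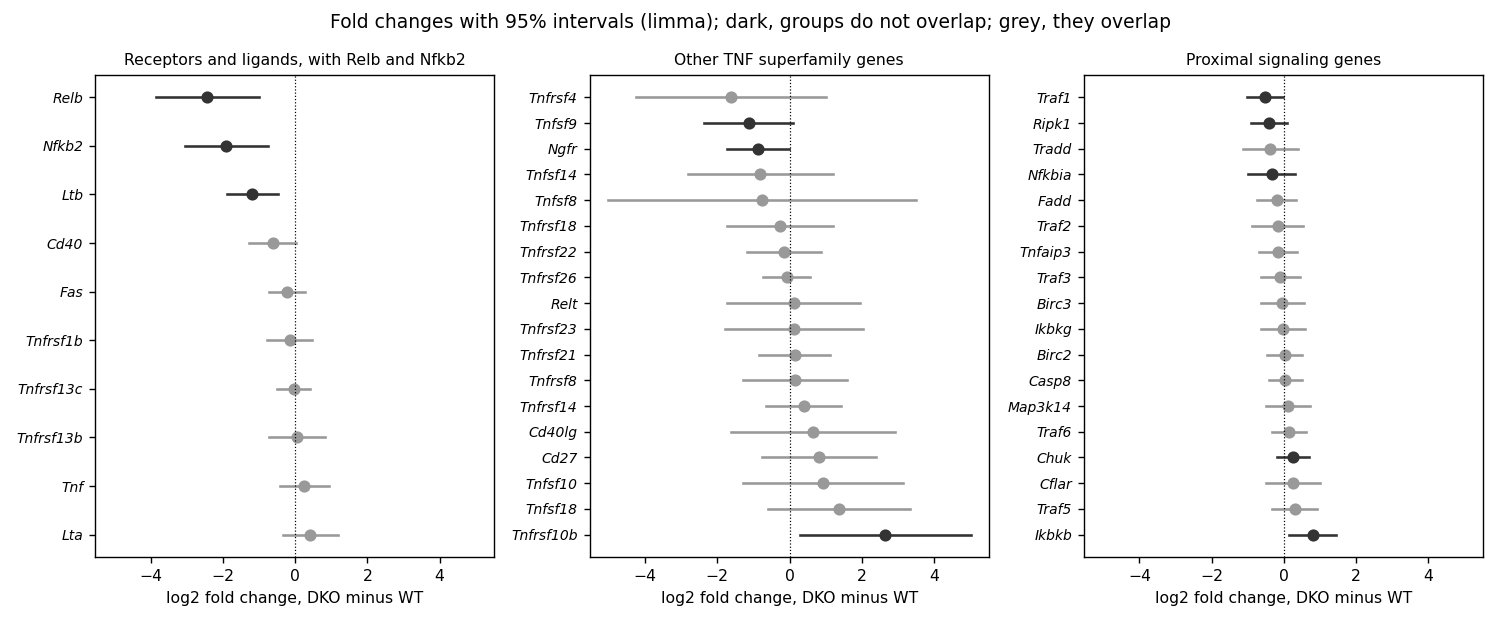
Log2 fold changes in DKO against WT (x axis) with 95% intervals from limma, for the tested members with Relb and Nfkb2 (left), the other TNF superfamily genes (middle) and the proximal signaling genes (right). Dark points are genes whose groups do not overlap, and Ltb is the only member among them, next to the targeted Relb and Nfkb2.

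The rest of the superfamily was mostly silent or weak in these cells. Of 21 other receptor genes, 12 reached the minimum, with 7 higher and 5 lower fitted values in DKO, a median of 0.12 (log2 fold change) and none past the adjusted threshold (smallest adjusted p = 0.823, limma). Tnfrsf10b, the death receptor for TRAIL, was at 21.4, 1.03 and 13.5 normalized counts across WT, against 49.9 and 57.0 across DKO. Both DKO libraries were above every WT library (log2 fold change 2.64 ± 1.05, unadjusted p = 0.0325, limma). These values come from 20, 1 and 14 reads in WT and 57 and 69 in DKO. Ngfr, the low-affinity neurotrophin receptor, was at 113, 198 and 138 across WT, against 95.5 and 66.1 across DKO, below every WT library (−0.87 ± 0.38, unadjusted p = 0.0466). The costimulatory receptors Tnfrsf4 and Cd27 had log2 fold changes of −1.63 ± 1.16 and 0.81 ± 0.70, with overlapping groups. Of the 12 tested, 1 was higher and 1 lower in DKO without overlap, beside 12.5% and 11.0% of all genes tested.

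Of 15 other ligand genes, 6 reached the minimum, with 3 higher and 3 lower, a median of −0.06 and none past the threshold (smallest adjusted p = 0.836, limma). Tnfsf9, the ligand of the costimulatory receptor encoded by Tnfrsf9, was at 96.4, 46.4 and 42.3 normalized counts across WT, against 22.8 and 28.9 across DKO, without overlap (log2 fold change −1.13 ± 0.54, unadjusted p = 0.0660). Tnfsf18, Tnfsf10 and Tnfsf14 had log2 fold changes of 1.36 ± 0.87, 0.92 ± 0.98 and −0.81 ± 0.89. Of the 6 tested, 1 (Tnfsf9) was lower in DKO without overlap and 0 higher, beside 11.0% and 12.5% of all genes tested. Tnfsf13b, which encodes BAFF, was at 8.56 in WT replicate 1, at 2.63 in DKO replicate 1 and at 0 in the other 3 libraries.

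Several weak superfamily genes were highest in the libraries with more T cell transcripts, whatever the genotype. WT replicate 2 and DKO replicate 1 were the 2 highest libraries for 4 of the 12 other receptors and 3 of the 6 other ligands tested, for 15.3% of all genes tested, and for none of the 8 tested members. Cd27 was at 36.4, 130.0 and 25.9 across WT, against 133 and 58.6 across DKO. Cd40lg, which encodes the CD40 ligand of T cells, was at 3.21, 38.2 and 17.3 across WT, against 28.0 and 16.5 across DKO. Fasl, the ligand of Fas and a product of cytotoxic cells, was at 42.3 in WT replicate 2 and at 0 in the other 4 libraries, DKO replicate 1 among them. Markers of natural killer cells, 6 in number, summed to 20.3, 349 and 0 across WT, against 83.2 and 26.4 across DKO. The T cell marker Cd3e was at 10.7, 363 and 7.69 across WT, against 163 and 26.4 across DKO. The part of T cells or natural killer cells in these superfamily levels was not tested.

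Genes that relay or restrain the receptors' signals were all expressed. Of 18 such genes 8 had higher and 10 lower fitted values in DKO, with a median of −0.04 (log2 fold change) and none past the adjusted threshold (limma). The kinase gene Ikbkb was at 1469, 2291 and 1311 normalized counts across WT, against 3473 and 2341 across DKO (log2 fold change 0.80 ± 0.29, unadjusted p = 0.0211). Traf1, an adaptor gene, was at 1429, 1042 and 1056 across WT, against 842 and 772 across DKO (−0.53 ± 0.22, unadjusted p = 0.0419, limma). Ripk1, a kinase of the TNF receptor complex, and Chuk, the kinase that phosphorylates p100, had log2 fold changes of −0.42 ± 0.22 and 0.24 ± 0.20. In each of these 4 genes and in Nfkbia, the gene of the inhibitor IκBα, the groups did not overlap. These are 5 of the 18 genes, beside the 23.4% of all genes tested.

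Among the 26 superfamily genes tested, profiles over the 5 libraries were compared by the root mean square difference of centred log2 levels. The gene nearest to Ltb was Ngfr, at 0.239, and the next was Cd40, at 0.291. Ngfr was also the nearest to Cd40 (0.281). Tnfrsf13c and Fas were nearest to each other (0.166). Lta was nearest to Tnfrsf21 (0.255), Tnf to Tnfrsf13b (0.253), Tnfrsf13b to Tnfrsf22 (0.237) and Tnfrsf1b to Tnfrsf26 (0.218). With 5 libraries these likenesses are descriptions.

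**Figure D5:**
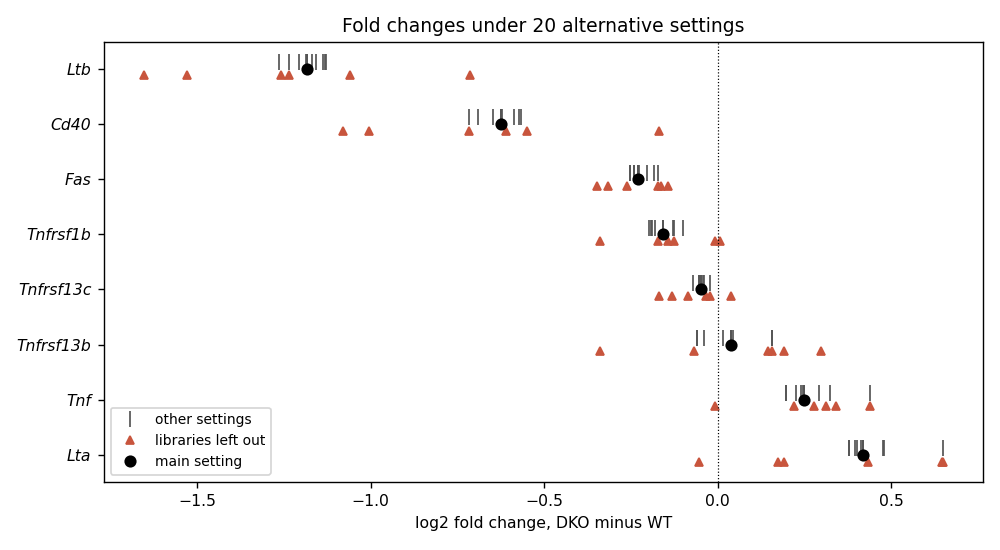
Log2 fold changes in DKO against WT (x axis) of the 8 tested members at the main setting (black points), with libraries left out (triangles) and with the other alternative settings (ticks), 20 alternatives in all. Ltb stays between −1.65 and −0.71 and Cd40 between −1.08 and −0.17, and Fas also stays below 0. The other members have values on both sides of 0.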

How the data were processed

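RNA of sorted splenic germinal center B cells was amplified (NuGEN Ovation RNA-Seq System V2) before HiSeq2500 sequencing, per the labels' protocols. Per the submitters' processing notes, TopHat2 2.0.4, Cufflinks 2.0.2, CASAVA 1.8.2 and mm9 were used. How genes were counted and scaled, and with which annotation and strand setting, is not given in the sources used here. A single table was deposited by the authors, with a normalized signal for 38924 genes in 5 libraries, called normalized counts here. These are read counts divided by a factor per library: in each library 99.99 to 100% of nonzero values were, within 0.01, a whole number times the smallest one, which gave back whole reads for the count tests. Exon lengths and chromosomes are from GENCODE M21 (GRCm38), another build than the authors used. Without a known strand setting, reads of antisense genes cannot be told apart.

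Genes with a mean of at least 10 were tested on log2(value + 1) with limma 3.58.1 (R 4.3.3, two-sided, trended variance). P-values were adjusted over all 13242 genes by Benjamini-Hochberg, at 0.05. The log2(value + 1) scale shrinks the fold changes of weak genes. The fit had 3 residual degrees of freedom plus 5.92 from the prior. EdgeR 4.0.16 (quasi-likelihood test) and DESeq2 1.42.0 were run on the recovered reads. Alternatives were the pseudocount, the minimum, TMM and quantile scaling, other variance models, a replicate block, a T cell covariate and libraries left out. Only the main limma fit was run on simulated data, which held no differences in cell content between libraries. No result of that run is used here.

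The 10 members, the lists and the alternatives were chosen with earlier results of these data known. Named besides the members are Relb and Nfkb2, up to 4 genes with the smallest p in each of 3 lists (other receptors, other ligands, proximal signaling genes), the nearest profiles and cell type markers. Tnfsf13b, Cd40lg, Fasl, Mef2b, Cd79a, Rgs13 and Nfkbia and the ratios were chosen after their values were seen.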

Additional observations from a re-analysis of the deposited data

How the results depend on the processing

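No member passed the adjusted threshold in any of the 20 alternatives. The smallest adjusted p of a member was 0.192, for Ltb in DESeq2. Ltb kept its direction in 20 of 20, with an unadjusted p under 0.05 in 19. Cd40 kept its direction in 20 of 20, with an unadjusted p under 0.05 in 5 (TMM scaling, the replicate block, the T cell covariate, without DKO replicate 1 and without both WT replicate 2 and DKO replicate 1), and Fas kept its direction in 20 of 20, with 0 under 0.05. Tnfrsf13b, Tnfrsf13c, Tnfrsf1b, Lta and Tnf each changed sign in at least 1 alternative. At the main setting Lta was at 0.42 and Tnf at 0.25. Tnfrsf13b was at −0.060 with edgeR, −0.059 with DESeq2 and −0.040 with the T cell covariate, and ran from −0.34 to 0.30 with libraries left out. Over the fits that leave out 1 library, or WT replicate 2 and DKO replicate 1 together, Tnfrsf13c ran from −0.17 to 0.037, Tnfrsf1b from −0.34 to 0.0074, Lta from −0.053 to 0.65 and Tnf from −0.0070 to 0.44. The lower ends for Tnfrsf13c and Lta and the upper end for Tnfrsf1b come from leaving out both libraries.

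Calls over the whole table moved more. Genes past the adjusted threshold numbered 0 at the main setting, 2 with library weights, 29 with DESeq2, 1 with the T cell covariate, 0 to 1 with 1 library left out and 2 without both WT replicate 2 and DKO replicate 1. At an unadjusted p under 0.05, genes higher in DKO numbered 489 at the main setting, 765 at a minimum of 1, 907 with none, 91 to 736 with 1 library left out and 197 without both libraries. Genes lower in DKO numbered 314, 474 with the T cell covariate, 215 to 372 with 1 library left out and 208 without both libraries. The cause was not tested.

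Replicate numbers are shared by 2 libraries of each genotype, and the labels do not say that they pair mice. Deviations of same-numbered libraries correlated at 0.00499 for number 1 and −0.28 for number 2. With 2 DKO libraries the deviations mirror each other, so WT replicate 2 correlated at 0.28 with DKO replicate 1. These values therefore cannot show whether same-numbered libraries are paired. With the replicate block, 36 genes passed the adjusted threshold and 270 were higher at an unadjusted p under 0.05, with 1 residual degree of freedom in place of 3. Ltb was then at −1.23 (adjusted p = 0.356) and Cd40 at −0.71.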
